A study of Danio rerio with 12 samples.

Results

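Interferon response and antigen presentation genes were followed in zebrafish embryos injected with morpholinos, which are synthetic antisense oligomers that keep a target RNA from being translated or spliced. The set holds 9 genes, isg15, b2m, mhc1uba, psmb8a, stat1a, stat1b, irf1b, irf9 and rsad2, and every array probe whose RefSeq accession belongs to one of them was read. They had 17 of the 43603 non-control probes on the array. Of these, 14 were kept, because all 3 arrays of 1 group or more read them well above the scanner's background. The kept probes covered 8 of the 9 genes, and in all 36684 probes and 12849 of 14016 named genes were kept.

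Embryos carrying a PCSK7 and a p53 morpholino (PCSK7+p53) were set against embryos carrying a control morpholino, once at 6 h and once at 24 h post fertilization, with 3 arrays in each of the 4 groups. All embryos were of the wild-type AB strain, received 0.25 to 1.0 pmol per morpholino in the yolk while they had 1 to 4 cells, and were kept at 28.5 °C. Each array carried RNA of a pool of 18 to 35 whole embryos, so fewer cells of a type and less RNA per cell cannot be told apart. The control embryos received no p53 morpholino, so each comparison of morpholinos holds the effect of the PCSK7 and p53 morpholinos together. PCSK7 is a proprotein convertase of the secretory pathway, and p53 is a transcription factor of the DNA damage response whose morpholino is commonly used to limit cell death after injection. The labels do not say that the pools came from separate clutches, so p-values reflect only how far these pools varied, which may be technical.

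The 75th percentile of the signal was 633.8 to 730.0 units on the PCSK7+p53 arrays against 403.4 to 512.6 on the control arrays at 6 h, and 1021.6 to 1087.4 against 695.4 to 993.3 at 24 h. No member probe was saturated. Values below are each probe's signal as a percentage of its array's 75th percentile, called scaled signal, and are compared between groups for the same probe only. Control arrays lay on 3 slides that each held both times, and PCSK7+p53 arrays lay on 1 slide per time and were scanned in another session. Slide and session therefore cannot be told apart from the morpholino in any of the morpholino comparisons. The version of the software that read the scans split the arrays in the same way. The labels do not say whether the PCSK7+p53 and control pools came from the same clutches. The number of arrays limits the precision of each value.

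Interferons are cytokines released when cells sense viral nucleic acid. In mammals and fish their receptors activate STAT transcription factors, which with IRF9 switch on interferon-stimulated genes such as isg15 and rsad2, while IRF1 acts downstream of interferon gamma. Many of these targets serve class I antigen presentation, in which the immunoproteasome cuts proteins into peptides that a class I heavy chain presents on the cell surface together with beta-2 microglobulin. In zebrafish, class I heavy chain genes and some immunoproteasome genes of the core MHC region differ in presence and sequence between haplotypes.

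At 6 h the 9 genes did not move one way: isg15 was far lower in PCSK7+p53 embryos, and b2m, mhc1uba, psmb8a, stat1a, stat1b and irf1b were higher. Of the 14 kept member probes, 11 were higher and 2 lower, where 59.6% of all kept probes were called, 28.4% higher and 31.2% lower (limma, adjusted p under 0.05). At 24 h, 7 were higher and 2 lower, where 45.7% of all kept probes were called, 20.6% higher and 25.1% lower. The 3 PCSK7+p53 arrays did not overlap the 3 control arrays for 13 of the 14 member probes at 6 h (65.8% of all kept probes) and for 8 at 24 h (61.4%). Some probes were kept only through PCSK7+p53 arrays: the 3 mhc1uba probes, the psmb8a and stat1b probes and the dimmer irf1b probe. Their higher calls and lack of overlap at 6 h are tied to that filter, and so are those of the 2 brighter mhc1uba probes at 24 h. The psmb8a probe and the dimmest mhc1uba probe were kept only through PCSK7+p53 arrays at 6 h. Their falls over time and their downward differences are tied to the filter as well. The irf9 probes were kept only through 24 h arrays, which ties their rises over time to it likewise. At 6 h 1 lower call (irf9) was at background in both groups. At 24 h so were 1 lower call (psmb8a) and 1 higher call (mhc1uba). Probes of 1 gene are not separate observations. The effect differed between the times for 8 of the 14 probes, 1 upward and 7 downward, where 46.5% of all kept probes were called, 22% upward and 24.5% downward. Between 24 h and 6 h, 5 member probes were higher and 6 lower within PCSK7+p53 embryos (89.8% of all kept probes called, 45.2% higher and 44.6% lower), and 9 were higher and 3 lower within control embryos (90.1% called, 45.5% higher and 44.6% lower). Within control embryos the lower psmb8a call and the calls of the 2 brighter mhc1uba probes, 1 higher and 1 lower, were at background at both times. A member's call is thus read against arrays on which about as many probes were called as not between the morpholinos.

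**Figure D1:**
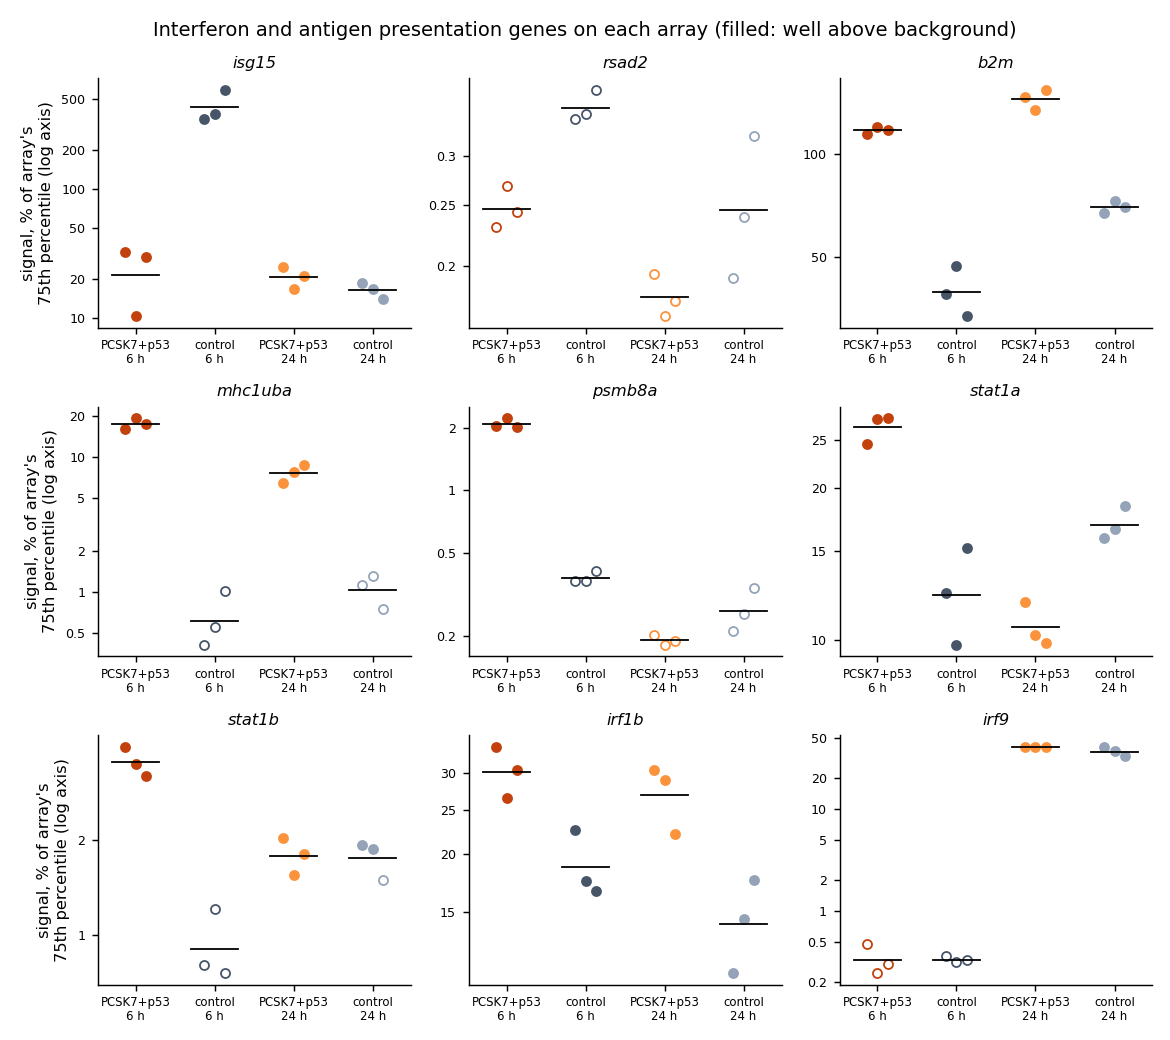
Scaled signal (% of the array's 75th percentile, log axis) of 1 probe per gene on all 12 arrays, with PCSK7+p53 left of control at each time. Filled points are well above background, open points are not, and the line is the geometric mean of 3 arrays; isg15 stands at 353 to 591% on the 6 h control arrays and at 32.6% or less on all others, and rsad2 has open points only.

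Among the signalling genes, stat1a and stat1b encode transcription factors of the STAT family. The scaled signal of stat1a was 24.5, 27.5 and 27.6% on the PCSK7+p53 arrays at 6 h, against 12.4, 9.79 and 15.3% on the control arrays. All 3 PCSK7+p53 arrays were above every control array, a 2.15-fold rise (log2 1.11, SE 0.15, adjusted p = 0.000117). At 24 h the order turned round, with 11.9, 10.2 and 9.89% in PCSK7+p53 embryos against 15.9, 16.6 and 18.4% in control embryos, a fall by 0.67 on the log2 scale (SE 0.15, adjusted p = 0.00399). Again the groups did not overlap. The difference between the 2 effects was -1.78 (SE 0.21, adjusted p = 0.000109). Between 6 h and 24 h stat1a fell by 1.31 within PCSK7+p53 embryos (adjusted p = 6.27e-06), whose 2 times lay on separate slides. Within control embryos it was higher at 24 h by 0.46 (adjusted p = 0.0112). That control change was lost under quantile normalization (0.16, adjusted p = 0.317), median centring (0.13, adjusted p = 0.457) and normexp, a model-based background correction (0.01, adjusted p = 0.952), and turned to -0.23 in the authors' deposited table.

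The brighter probe of stat1b gave 3.97, 3.49 and 3.204% in PCSK7+p53 embryos at 6 h, against 0.798, 1.21 and 0.754% in control embryos, where it was well above background on none of 3 arrays. The control value is therefore a bound, and the rise was at least 2.35-fold (log2 1.98, SE 0.18, adjusted p = 1.23e-05). At 24 h the values were 2.04, 1.55 and 1.81% against 1.93, 1.87 and 1.49% and overlapped (log2 0.03, SE 0.18, adjusted p = 0.924). The fitted difference between the effects was -1.95 (SE 0.26, adjusted p = 0.000247), but it is taken against control arrays at background at 6 h, so its size is not measured. Within PCSK7+p53 embryos, where all 6 arrays were above background, stat1b fell by 0.99 between 6 h and 24 h (adjusted p = 0.000409). These are dim values: 25.2, 25.5 and 21.7 signal units on the PCSK7+p53 arrays at 6 h, against 3.7, 4.9 and 3.9 on the control arrays. Under normexp with an offset of 50 units, larger than all of them, the 6 h change was -0.18 (adjusted p = 0.149) and the difference -0.06 (adjusted p = 0.776). The normexp median over all kept probes was itself -0.27 at 6 h. The other stat1b probe was well above background on no array. Its 4 group means lay between 0.217 and 0.427%, and it was not kept.

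IRF9 is the factor that binds interferon-stimulated promoters together with STAT proteins in mammals. Neither irf9 probe was well above background on any 6 h array of either group. At 24 h the brighter probe read 40.4, 40.8 and 40.9% in PCSK7+p53 embryos and 40.4, 36.9 and 32.8% in control embryos, overlapping ranges (log2 0.15, SE 0.20, adjusted p = 0.559). The other probe differed by -0.07 at 24 h (SE 0.27, adjusted p = 0.853). Signal of irf9 thus appeared between the times in both groups, at least 42.0-fold higher at 24 h within PCSK7+p53 embryos (adjusted p = 6.7e-11) and at least 24.3-fold within control embryos (adjusted p = 7.52e-11) for the brighter probe. The bounds for the other probe were 8.68-fold and 5.86-fold. At 6 h the second probe passed the threshold with a log2 change of -0.79 (adjusted p = 0.0298), but both groups were at background there and no level can be read from it.

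irf1b encodes a zebrafish copy of IRF1, a transcriptional activator of class I antigen presentation genes in mammals. Its brighter probe read 34.3, 26.5 and 30.4% in PCSK7+p53 embryos at 6 h, against 22.6, 17.5 and 16.6% in control embryos. The lowest PCSK7+p53 array was above the highest control array, a 1.61-fold rise (log2 0.69, SE 0.19, adjusted p = 0.0109). At 24 h it read 30.5, 29.0 and 22.1% against 11.01, 14.5 and 17.6%, a 1.91-fold rise (log2 0.93, SE 0.19, adjusted p = 0.00312). The effects at both times were not told apart (difference 0.24, SE 0.27, adjusted p = 0.493), and neither group passed the test between the times (-0.17, adjusted p = 0.425, within PCSK7+p53 embryos and -0.41, adjusted p = 0.065, within control embryos). The fall between the times was called under median centring within PCSK7+p53 embryos (-0.46, adjusted p = 0.0393) and within control embryos (-0.75, adjusted p = 0.0033). It was also called in both groups in the authors' deposited table, at -0.58 (adjusted p = 0.017) within PCSK7+p53 and -1.06 (adjusted p = 0.000385) within control embryos, and within control embryos under 4 further alternatives, among them without replicate 3 at 24 h (-0.57, adjusted p = 0.0196). Under normexp the 6 h rise was 0.25 and missed the threshold (adjusted p = 0.105). The dimmer probe was higher at 6 h (log2 0.96, SE 0.29, adjusted p = 0.0168), when it was above background on none of the control arrays, but gave -0.02 (SE 0.29, adjusted p = 0.969) at 24 h, so the probes disagreed on the later rise.

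isg15 encodes a ubiquitin-like protein that is joined to other proteins during antiviral responses. Its single probe, well above background on all 12 arrays, read 32.6, 10.3 and 29.99% in PCSK7+p53 embryos at 6 h, against 353, 383 and 591% in control embryos. The highest PCSK7+p53 array was more than 10 times below the lowest control array, and the fitted fall was 19.9-fold (log2 -4.32, SE 0.39, adjusted p = 1.04e-05). At 24 h the values were 24.9, 16.7 and 21.3% in PCSK7+p53 embryos and 18.8, 16.8 and 14.0% in control embryos, which overlapped (log2 0.34, SE 0.39, adjusted p = 0.518). The effect thus differed between the times by 4.65 (SE 0.55, adjusted p = 0.000127). One group, the control embryos at 6 h, stood apart from the other 3. Within control embryos isg15 was 26.3-fold lower at 24 h than at 6 h (log2 -4.72, SE 0.39, adjusted p = 5.15e-07). Within PCSK7+p53 embryos the same comparison gave -0.06 (adjusted p = 0.883), or -0.60 (adjusted p = 0.0377) without replicate 2 at 6 h. With 1 array left out at a time the 6 h fall ranged between -4.61 and -3.78. The array annotation read with the control arrays gave this probe a GenBank accession, and the later one a RefSeq accession, which set its name for all arrays.

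The fall of isg15 at 6 h stood beside falls of type I interferon genes and of some p53 pathway genes, while other p53 pathway genes were higher. ifnphi1 and ifnphi3 are zebrafish interferon genes. The scaled signal of ifnphi3 was 1.59, 1.71 and 1.85% in PCSK7+p53 embryos against 7.09, 6.87 and 6.93% in control embryos at 6 h, a 4.06-fold fall (log2 -2.02, SE 0.08, adjusted p = 1.06e-07). ifnphi1 read 7.35, 4.63 and 7.69% against 16.7, 18.9 and 16.5%, a 2.71-fold fall (log2 -1.44, SE 0.24, adjusted p = 0.000524) that both of its probes passed. At 24 h both genes were still lower, by 0.76 (SE 0.08, adjusted p = 8.37e-05) for ifnphi3 and by 0.75 (SE 0.24, adjusted p = 0.0264) for the brighter ifnphi1 probe.

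Of 16 kept p53 pathway genes, 10 were lower and 5 higher at 6 h, where 30.9% of all kept genes were lower and 32% higher, and 0 were lower and 5 higher at 24 h, where 25.8% and 21% were. Their summed scaled signal, led by the brightest genes, was not lower at 6 h, at 14980 to 16000% in PCSK7+p53 against 14735 to 15213% in control embryos. At 24 h it was 28453 to 29563% against 28245 to 33493%. The pro-apoptotic gene bbc3 read 21.7, 13.3 and 22.0% in PCSK7+p53 embryos against 68.2, 69.9 and 119% in control embryos at 6 h. The growth arrest gene gadd45aa read 15.7, 10.1 and 16.6% against 61.0, 69.2 and 95.9%, and phlda3, an inhibitor of AKT signalling, 29.8, 13.7 and 30.5% against 111, 126 and 210%. Other genes of the list went the other way at 6 h. Among them baxa read 1033, 895 and 951% against 730, 723 and 647%, and baxb 26.5, 27.2 and 25.2% against 15.4, 15.8 and 16.1%. Replicate 2 was the lowest PCSK7+p53 array and replicate 3 the highest control array at 6 h for isg15, bbc3, gadd45aa and phlda3. Each of the 2 risers shared a part of this order. For baxa replicate 2 was the lowest PCSK7+p53 array but replicate 1 the highest control array. For baxb replicate 3 was the highest control array but replicate 2 the highest PCSK7+p53 array. The falling interferon genes did not share the order of isg15 in full. For ifnphi3 replicate 1 was the lowest PCSK7+p53 array and also the highest control array, and for ifnphi1 replicate 2 was. For ifit8, an interferon-induced gene, replicate 1 was the lowest PCSK7+p53 array and replicate 3 the highest control array. The order of 3 arrays was not tested, and how many other genes share that of isg15 was not counted. The part of the p53 morpholino, or of p53 activity, in the fall of isg15 was not tested.

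**Figure D2:**
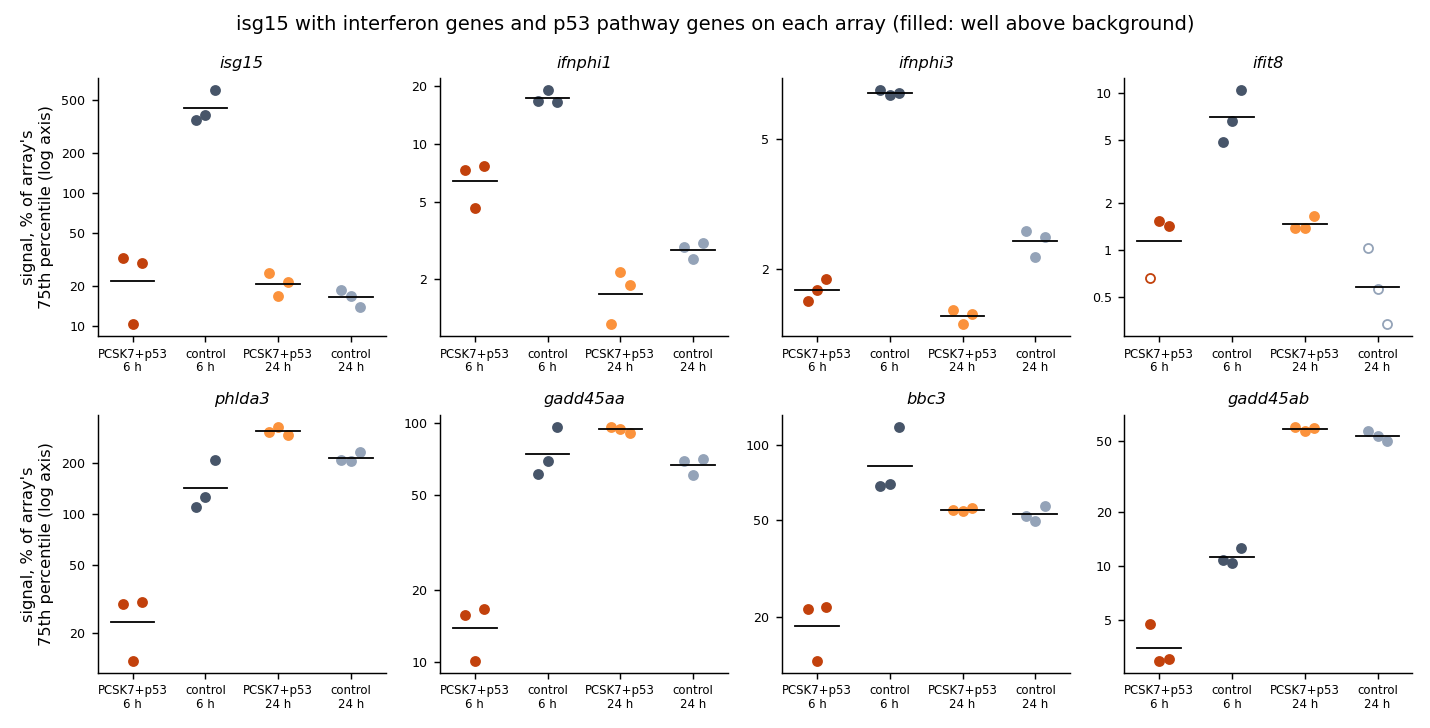
Scaled signal (% of the array's 75th percentile, log axis) of isg15, 2 interferon genes, ifit8 and 4 p53 pathway genes on all 12 arrays, with PCSK7+p53 left of control at each time; filled points are well above background and the line is the geometric mean of 3 arrays. At 6 h all 3 PCSK7+p53 points of each gene lie below all 3 control points, and at 24 h the 2 groups of isg15, bbc3 and phlda3 were not told apart. Genes of these lists that were higher at 6 h are not drawn.

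rsad2 encodes viperin, an antiviral enzyme of the endoplasmic reticulum and a strongly induced interferon target. Its single probe was well above background on no array, with scaled signals of 0.230, 0.268 and 0.244% in PCSK7+p53 embryos and 0.343, 0.350 and 0.382% in control embryos at 6 h. The 24 h values were 0.194, 0.166 and 0.176% against 0.192, 0.239 and 0.322%. It was not kept, and a transcript below the array's background was not detectable. Kept probes that were above background on no array of the 2 groups also had a negative median change at 6 h (-0.53 over 4262 probes) and at 24 h (-0.40 over 929), so lower values of rsad2 carry no direction.

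Of the members that serve antigen presentation, b2m, mhc1uba and psmb8a were higher in PCSK7+p53 embryos at 6 h. b2m encodes beta-2 microglobulin, the light chain that all classical class I molecules need to reach the cell surface. Its brightest probe read 115, 121 and 118% in PCSK7+p53 embryos at 6 h, against 38.7, 46.9 and 33.4% in control embryos, a 3.00-fold rise (log2 1.59, SE 0.11, adjusted p = 2.15e-06). At 24 h it read 148, 135 and 155% against 67.1, 73.1 and 70.3%, a 2.08-fold rise (SE 0.11 on the log2 scale, adjusted p = 6.4e-05). The groups did not overlap at either time. The other probes rose too, by 1.91 and 1.61 at 6 h and by 1.23 and 1.56 at 24 h on the log2 scale. The rise was smaller at 24 h on the first 2 probes (difference -0.53, adjusted p = 0.0185, and -0.68, adjusted p = 0.00143), but not told apart on the third (-0.05, SE 0.22, adjusted p = 0.867). In the authors' deposited table the first of these differences was -0.28 (adjusted p = 0.123).

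The 4 groups thus had an order for b2m, with PCSK7+p53 at 24 h above PCSK7+p53 at 6 h, then control at 24 h and control at 6 h. Within PCSK7+p53 embryos the rise between the times was 0.31 (SE 0.11, adjusted p = 0.0229) and the call was lost without replicate 1 at 6 h (0.29, adjusted p = 0.0578) and without replicate 1 (0.30, adjusted p = 0.0556) or replicate 3 (0.26, adjusted p = 0.077) at 24 h. Within control embryos it was 0.84 (SE 0.11, adjusted p = 2.74e-05). Median centring reduced the first to 0.01 (adjusted p = 0.939).

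mhc1uba encodes a classical class I heavy chain, the molecule that holds the peptide. The brightest of its 3 probes read 16.0, 19.4 and 17.5% in PCSK7+p53 embryos at 6 h, against 0.406, 0.546 and 1.01% in control embryos. At 24 h it read 6.41, 7.70 and 8.79% against 1.12, 1.31 and 0.753%. The probe was well above background on all 6 PCSK7+p53 arrays and on 0 of the 6 control arrays, so only the first group has a measured level. The rise was at least 11.7-fold at 6 h (log2 4.85, SE 0.31, adjusted p = 1.18e-06) and at least 6.19-fold at 24 h (log2 2.87, SE 0.31, adjusted p = 6.93e-05). Under normexp the brightest probe's log2 change was 0.83 at 6 h and 0.58 at 24 h, still called at both times. Without normexp, the mean log2 change over the 3 probes was 3.48 at 6 h and 2.16 at 24 h. The 24 h mean includes the third probe, at background in both groups. The second probe showed the same pattern at a dimmer signal, with 3.07, 3.34 and 2.87% at 6 h and 1.26, 1.25 and 1.76% at 24 h in PCSK7+p53 embryos and at most 0.414% on any control array. Its bounds were at least 2.05-fold at 6 h and at least 1.41-fold at 24 h. The third probe was above background only in PCSK7+p53 embryos at 6 h (1.75, 2.03 and 1.49%, at least 1.16-fold), so its 24 h change is a difference at background.

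Within PCSK7+p53 embryos mhc1uba fell between 6 h and 24 h, by 1.22 (SE 0.31, adjusted p = 0.00314) on the brightest probe and by 1.13 (SE 0.19, adjusted p = 0.000196) on the second. The fitted difference between the morpholino effects on the brightest probe was -1.98 (SE 0.43, adjusted p = 0.00411), but all 6 control arrays were at background, so its size is not measured. It missed the threshold in the authors' deposited table (-1.17, adjusted p = 0.0526), under quantile normalization (-1.09, adjusted p = 0.0712) and under normexp (-0.25, adjusted p = 0.171), and it was -0.38 (SE 0.27, adjusted p = 0.278) on the second probe. Class I heavy chain genes of zebrafish are alike in sequence, and whether these probes also read other copies was not tested. Whether the PCSK7+p53 and control pools differed in haplotype was not tested either.

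psmb8a encodes a catalytic subunit of the immunoproteasome. Its kept probe read 2.03, 2.23 and 2.02% in PCSK7+p53 embryos at 6 h, against 0.366, 0.368 and 0.410% in control embryos at background. The rise was at least 1.39-fold (fitted log2 2.46, SE 0.14, adjusted p = 7.71e-07). In signal units these were 12.9, 16.3 and 13.7 against 1.7, 1.5 and 2.1, and normexp with its offset of 50 units gave -0.22 (adjusted p = 0.113). The normexp median over all kept probes was itself -0.27 at 6 h. At 24 h no array of either group was above background, and the called change of -0.46 (adjusted p = 0.0237) is a difference at background. Between 6 h and 24 h within PCSK7+p53 embryos the probe fell at least 2.92-fold (adjusted p = 1.47e-09). It was kept only through the PCSK7+p53 arrays at 6 h, so this fall is tied to the filter. The other probe was above background on 2 of 3 PCSK7+p53 arrays at 6 h and on 1 of 3 control arrays at 24 h, and was not kept.

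**Figure D3:**
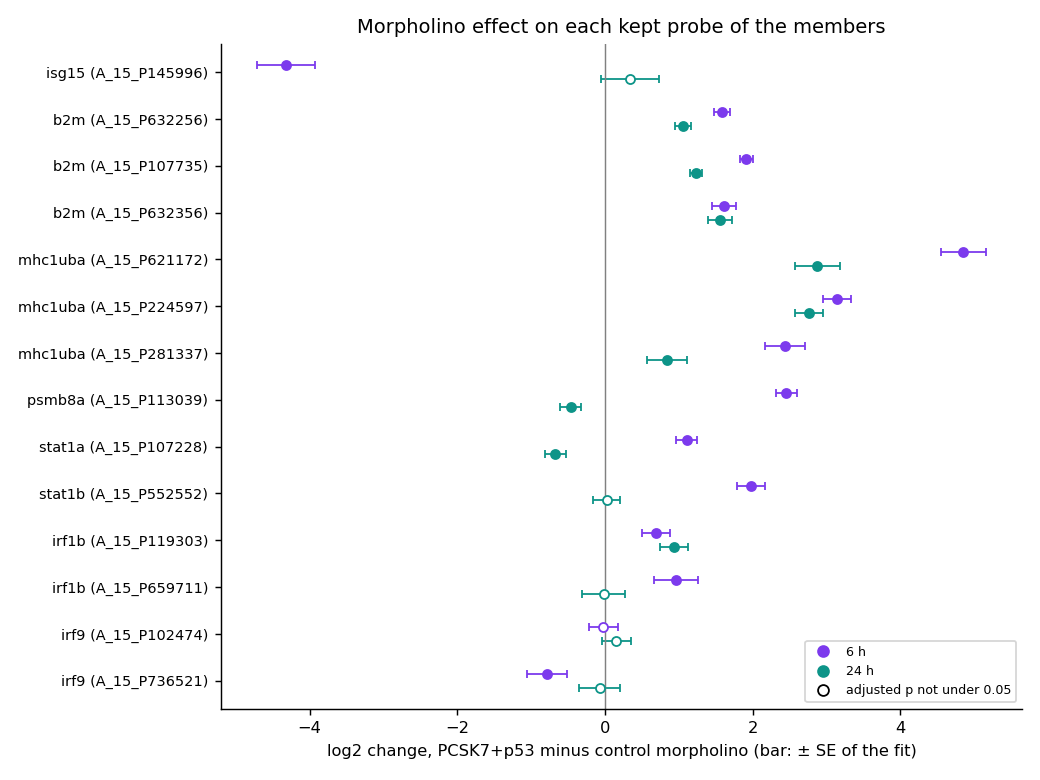
Log2 change of each of the 14 kept member probes, PCSK7+p53 minus control morpholino, at 6 h (purple, upper) and 24 h (teal, lower), with ± the standard error of the fit; open points did not pass an adjusted p of 0.05. isg15 lies at -4.32 at 6 h and 0.34 at 24 h, the 3 b2m probes lie between 1.05 and 1.91 at both times, and stat1a changes sign.

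The direct partners of these genes were read from the same fit. Counts of a list below include the members it holds, and at the level of genes 62.9% of all kept genes were called at 6 h, 32% higher and 30.9% lower, and 46.8% at 24 h, 21% higher and 25.8% lower. Of 15 kept class I presentation genes, 4 were higher and 2 lower at 6 h (median log2 -0.06, against -0.0041 over all kept genes), and 5 were higher and 5 lower at 24 h (median -0.18, against -0.03). The second beta-2 microglobulin gene, b2ml, read 135, 142 and 141% in PCSK7+p53 embryos against 34.6, 36.2 and 38.1% in control embryos at 6 h. Its 3.84-fold rise (SE 0.07 on the log2 scale, adjusted p = 4.94e-08) was called on all 4 of its probes, and at 24 h its change was 0.20 (adjusted p = 0.0348), called on 1 of 4 probes. The heavy chain gene mhc1zea rose by 0.80 at 6 h (SE 0.12) and gave 0.01 at 24 h. mhc1laa, another heavy chain gene, fell by 0.73 at 6 h (SE 0.07) and by 1.25 at 24 h (SE 0.07). Tapasin, which loads peptide onto class I molecules, is encoded by tapbp.1 and tapbp.2. At 24 h tapbp.1 read 7.655, 8.495 and 7.029% against 28.3, 29.4 and 20.4%, a 3.34-fold fall (adjusted p = 1.17e-05) called on both probes. tapbp.2 fell by 1.22 on its brightest probe (adjusted p = 0.000579) and on 2 of its 3 probes.

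Of 9 kept immunoproteasome and activator genes, 5 were higher and 1 lower at 6 h (median 0.24), and 3 were higher and 4 lower at 24 h (median -0.24). The activator subunit psme1 read 201, 207 and 255% in PCSK7+p53 embryos against 25.3, 19.9 and 20.3% in control embryos at 6 h, a 10.1-fold rise (log2 3.34, SE 0.18, adjusted p = 4.96e-07) that its other probe also showed (3.90). Its partner subunit psme2 gave -0.22 at 6 h (SE 0.29, adjusted p = 0.53), and at 24 h psme1 gave -0.28 (SE 0.18, adjusted p = 0.234). The catalytic subunit psmb9a rose by 0.60 at 6 h (SE 0.19, adjusted p = 0.0172) and by 1.31 at 24 h (SE 0.19, adjusted p = 0.000352).

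The catalytic subunit gene psmb10 behaved in the opposite way at 24 h, with 36.2, 25.5 and 22.2% in PCSK7+p53 embryos against 142, 180 and 237% in control embryos. This 6.67-fold fall (log2 -2.74, SE 0.20, adjusted p = 9.07e-06) was called on all 3 of its probes, while its 6 h change of 0.19 (SE 0.20, adjusted p = 0.42) did not pass. psmb12, a further subunit of this group in fish, fell by 1.08 at 6 h (SE 0.22) and rose by 0.94 at 24 h (SE 0.22), both on 2 of 2 probes. psmb13a had no kept probe. Of 7 kept standard beta subunit genes, 4 were higher and 2 lower at 6 h (median 0.31), and 1 was higher and 3 lower at 24 h (median 0.02). Among them psmb5, psmb6 and psmb7, whose products the immunoproteasome subunits replace, rose by 0.41, 0.87 and 0.31 at 6 h and gave 0.13, 0.05 and 0.02 at 24 h, values that did not pass on their brightest probes (adjusted p = 0.131, 0.59 and 0.784).

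**Figure D4:**
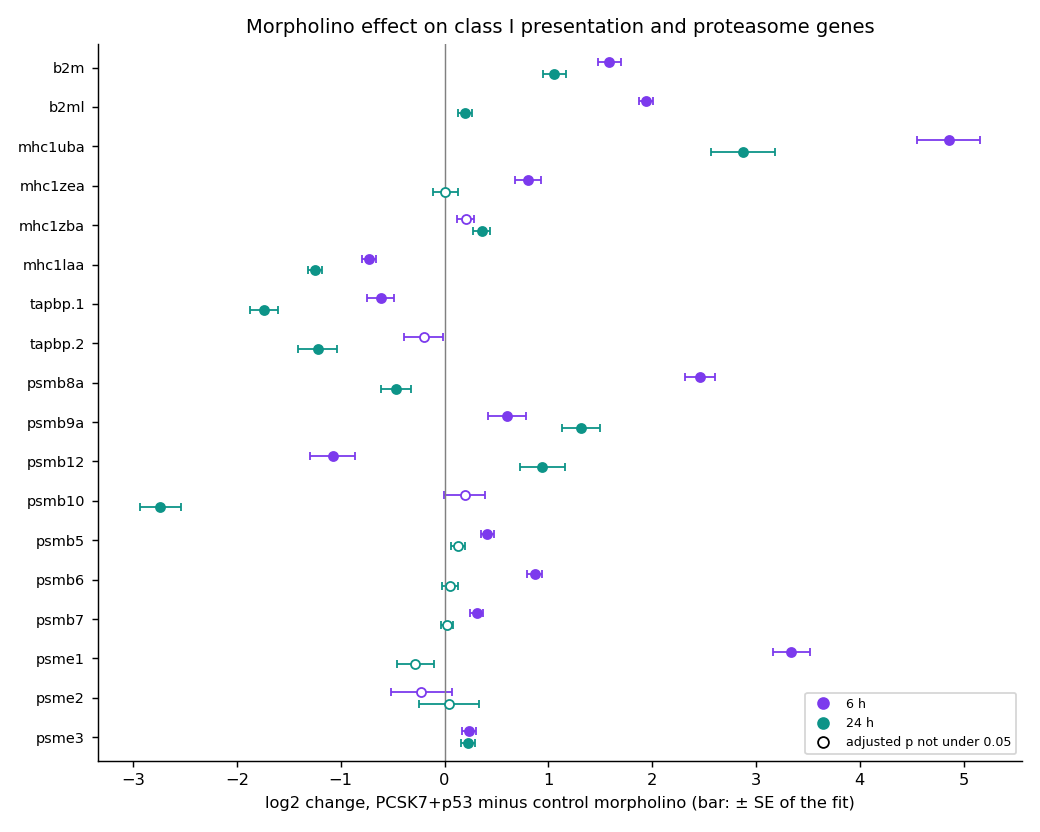
Log2 change, PCSK7+p53 minus control morpholino, of class I presentation and proteasome genes on their brightest probe at 6 h (purple, upper) and 24 h (teal, lower), with ± the standard error of the fit; open points did not pass an adjusted p of 0.05. psme1 lies at 3.34 at 6 h and at -0.28 at 24 h, psmb10 falls by 2.74 at 24 h, and psmb5, psmb6 and psmb7 stay under 1 at both times.

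mhc1uba and psmb8a are near neighbours in the RefSeq gene order of assembly GRCz12tu, with psmb13a between them. The 8 protein-coding genes on each side of this stretch were listed after the values of these members had been seen. Of 19 genes in all, 14 had a kept probe. At 6 h 3 were higher and 5 lower, where 32% of all kept genes were higher and 30.9% lower. At 24 h 3 were higher and 6 lower, where 21% of all kept genes were higher and 25.8% lower. The rises at 6 h were those of mhc1uba, psmb8a and psmb9a, and the falls those of flot1a (-0.87), daxx (-0.51), tapbp.1 (-0.62), psmb12 (-1.08) and brd2a (-0.86). At 24 h mhc1uba, psmb9a and psmb12 were higher, and flot1a (-0.58), kifc1 (-0.48), rxrba (-0.45), tapbp.1 and tapbp.2 were lower, besides psmb8a at background. The counts include mhc1uba and psmb8a themselves. They describe these 14 genes, which changed in both directions, and are not read as a result about the region.

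Other genes of the interferon pathway changed in both directions as well. Of 7 kept ligand and receptor genes, 4 were lower and 0 higher at 6 h (median -0.25), and 2 were lower and 0 higher at 24 h (median 0.09). The 4 were ifnphi1, ifnphi3 and the receptor chain genes crfb2 (-0.25, adjusted p = 0.0458) and crfb4 (-0.35, on 1 of 3 probes). Of 14 kept sensor and adaptor genes, 4 were higher and 6 lower at 6 h (median -0.22), and 8 were higher and 4 lower at 24 h (median 0.32). The helicase gene dhx9 rose by 1.23 (SE 0.09) at 6 h, tlr3, the endosomal receptor for double-stranded RNA, by 0.99 (SE 0.09), and its adaptor gene ticam1 by 0.62 (SE 0.07, on 2 of 3 probes). The kinases that activate IRF3, tbk1 and ikbke, fell by 0.99 (SE 0.10, on 1 of 3 probes) and 0.91 (SE 0.09) at 6 h, and by 0.88 and 0.84 at 24 h. At 24 h cgasa, a zebrafish cGAS gene, was at least 1.99-fold higher (adjusted p = 0.00327). Its probe was above background on all 3 PCSK7+p53 arrays at 24 h and on no array of any other group. It was kept only through those arrays, so this call is tied to the filter.

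Of 16 kept JAK-STAT genes, 6 were higher and 7 lower at 6 h (median 0.05), and 2 were higher and 5 lower at 24 h (median -0.09). stat1a and stat1b were among the risers at 6 h together with stat3 (0.34) and stat5b (0.40, with -0.43 on its other probe), while stat5a fell by 0.83 (SE 0.12), stat6 by 1.25 (SE 0.12, on 1 of 3 probes), the receptor kinase gene jak2b by 0.97 (SE 0.08) and the feedback inhibitor socs3b by 0.78 (SE 0.07). No stat2 probe was kept. At 24 h stat6 fell by 0.86, stat5a by 0.84 and socs1a by 0.63. Of 12 kept interferon regulatory factor genes, 6 were higher and 2 lower at 6 h (median 0.14), and 3 were higher and 3 lower at 24 h (median 0.07). irf7, a driver of type I interferon genes, read 16.6, 17.1 and 16.1% in PCSK7+p53 embryos against 32.1, 34.1 and 30.5% in control embryos at 6 h (log2 -0.96, SE 0.09, adjusted p = 1.11e-05). irf10 rose by 0.88 (SE 0.11) and irf8, a macrophage lineage factor, by 0.72 (SE 0.21). At 24 h irf2a fell by 1.25 (SE 0.06), and irf1a, the other IRF1 copy, rose by 0.53 (SE 0.12, adjusted p = 0.00536).

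Of 18 kept interferon-stimulated effector genes, 6 were higher and 6 lower at 6 h (median -0.26), and 6 were higher and 1 lower at 24 h (median 0.32). ifi27.1 read 721, 757 and 766% in PCSK7+p53 embryos against 248, 218 and 187% in control embryos at 6 h, a rise by 1.79 (SE 0.17, adjusted p = 1.65e-05), and it rose by 1.41 at 24 h (SE 0.17). parp14rs1 (0.96, on 2 of 3 probes) and the guanylate-binding protein gene gbp1 (0.88) also rose at 6 h. ifit8, an interferon-induced gene with tetratricopeptide repeats, read 0.664, 1.54 and 1.42% against 4.91, 6.71 and 10.5% at 6 h (log2 -2.63, SE 0.44, adjusted p = 0.000518), with 1 of the PCSK7+p53 arrays at background. samhd1 fell by 1.01 at 6 h and by 0.94 at 24 h on 1 of 2 probes. Of 8 kept class II presentation genes, 3 were higher and 1 lower at 6 h and 1 was higher and 1 lower at 24 h. That higher call at 24 h, ctss1, was above background on no array of either group, so it is a difference at background. Of 16 kept inflammation and complement genes, 6 were higher and 5 lower at 6 h and 3 were higher and 2 lower at 24 h. mxa, an antiviral GTPase gene, rose by 0.67 at 24 h (SE 0.23, adjusted p = 0.0358) on 1 of 2 probes.

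**Figure D5:**
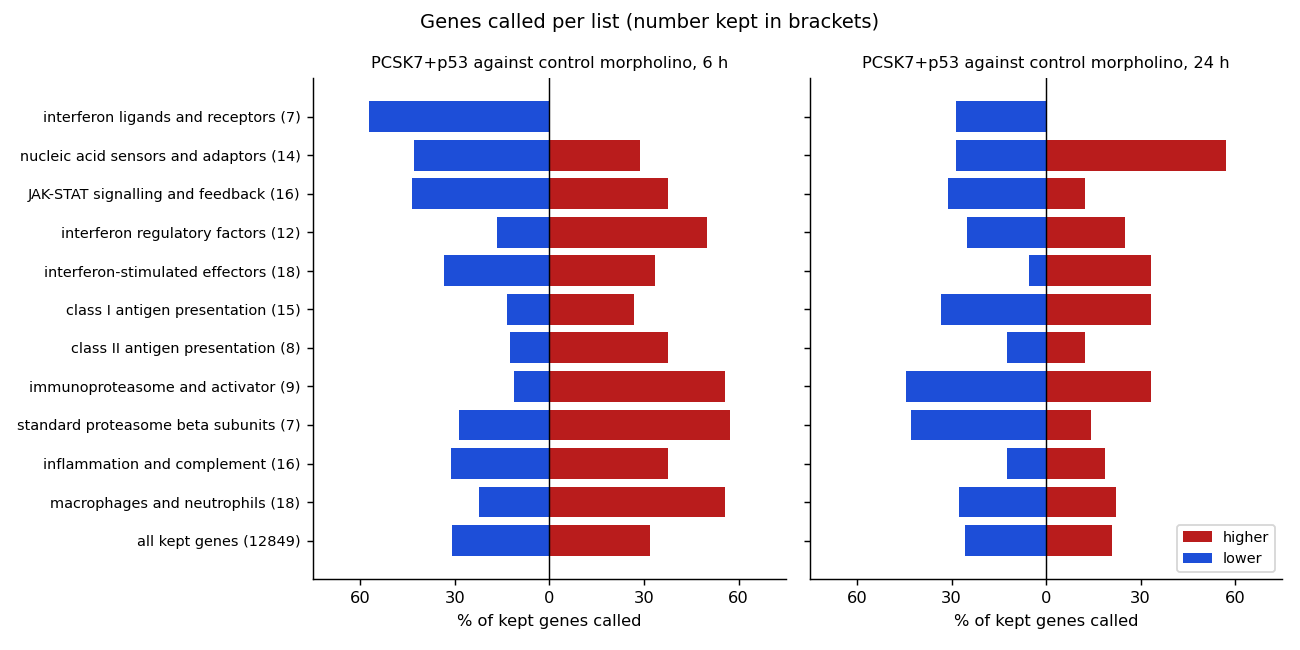
Percentage of the kept genes called higher (red, right) and lower (blue, left) in PCSK7+p53 against control embryos at 6 h and 24 h, for the interferon, antigen presentation, proteasome, inflammation and blood cell lists, with the number kept in brackets and all 12849 kept genes in the lowest row; the p53 pathway and stage lists are not drawn. Ligand and receptor genes have no higher call at either time, and the other lists shown hold calls in both directions at both times. The only higher class II call at 24 h was at background in both groups.

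Stage and cell type markers moved with the same comparisons. At 6 h, 13 of 18 gastrula stage genes were higher and 0 lower in PCSK7+p53 embryos, and their summed scaled signal was 21650 to 23233% against 11375 to 14197% in control embryos. Genes of the 24 h stage summed to 282 to 353% against 169 to 175% at 6 h. A sum is led by its brightest genes, and most of this gap lay in 1 gene. This was ctslb, with 168, 158 and 215% against 51.1, 52.1 and 47.3%. Another gene of the list, ckma, went the other way, with 28.9, 28.3 and 29.3% against 38.5, 38.6 and 39.2%. Of 20 kept genes of the 24 h stage, 9 were higher and 4 lower at 6 h, and 0 were higher and 7 lower at 24 h, when their sums were 102400 to 114510% against 120740 to 138140%. At 24 h, 8 of 18 gastrula stage genes were higher and 1 lower, with sums of 2454 to 2765% against 2040 to 2124%. Of 18 kept macrophage and neutrophil genes, 10 were higher and 4 lower at 6 h (sums 1815 to 2087% against 2047 to 2242%), and 4 were higher and 5 lower at 24 h (sums 1928 to 2131% against 2318 to 2413%). At 6 h the defining markers mpeg1.1, mpx and lyz were above background on no array of either group. At 24 h the macrophage gene mpeg1.1 read 16.2, 15.1 and 17.2% against 11.1, 10.8 and 10.9%, and the lysozyme gene lyz 7.46, 12.04 and 11.2% against 49.5, 46.7 and 43.0%. The part of stage or of blood cells in the members' changes was not tested.

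The genes with the pattern most like each member were ranked by Pearson correlation of log2 values over the 12 arrays, which share 4 groups and the slides, so r mostly follows the group means. isg15 was closest to dact2 (r = 0.988), mterf2 (0.983) and rint1 (0.98), and dact2 averaged 285 ± 20% in PCSK7+p53 embryos against 508 ± 18% in control embryos at 6 h (SD, n = 3 each). b2m was closest to zgc:174698 (0.986), cxcl12a (0.984) and hnrnpk (0.984). mhc1uba was closest to cabp5b (0.987), selenot1b (0.975) and tmem14cb (0.972), and psmb8a to plp2a (0.995), nfil3-3 (0.988) and phkg2 (0.988). stat1a was closest to adtrp1 (0.935), tfpt (0.928) and rac2 (0.925), stat1b to pcdh8 (0.974), smc1a (0.968) and smc1al (0.96), and irf1b to cfhl3 (0.934), coq5 (0.921) and scrn2 (0.92). irf9 was closest to six1b, atp2a1 and egfl7 (each 0.999), which were likewise at background at 6 h. Among the members, b2m and mhc1uba had r = 0.864, stat1a and psmb8a 0.852, and isg15 and b2m -0.79. Many other genes were closer: mhc1uba had rank 202 for b2m, psmb8a had rank 57 for stat1a, and stat1a had rank 622 for psmb8a. Values at background enter r for mhc1uba, psmb8a, stat1b and irf9.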

How the data were processed

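RNA of whole-embryo pools was labelled with Cy3 and hybridised to 12 Agilent 1-colour arrays. The deposited scanner files give intensity on a linear scale, background-subtracted by Agilent Feature Extraction. Its version was 10.7.1 per the submitters' processing notes. Per the file headers it was 10.7.1.1 on the control arrays and 10.7.3.1 on the PCSK7+p53 arrays. As an alternative, the authors' deposited table of processed intensity was fitted (19838 probes, median 172.1 in each column). All its columns were matched to a sample, leaving 0 unmatched, and the sources used here do not give its normalization.

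Spots flagged as outliers were left out and spots of a probe averaged. From log2 intensity, the 75th percentile of all non-control probes of that array was subtracted. RefSeq accessions in the scanner files were looked up among the RefSeq genes of GRCz12tu to name probes: 33678 probes had an accession and 26854 a name, while 15 named differently by the 2 annotation releases stayed unnamed. The array design uses other genome builds, so no coordinates are given. A gene is represented by its kept probe with the highest mean. Groups were compared with limma 3.58.1 (R 4.3.3, moderated by eBayes, two-sided), fitting the 4 group means on 12 arrays, 8 residual and 2.08 prior degrees of freedom, Benjamini-Hochberg over all kept probes, and a call at adjusted p under 0.05. "At least N-fold" stands where every array of 1 group and no array of the other was above background. The dim arrays then took the lowest signal well above background on that array, or their own where that was higher, and group means were compared. The fit was tested on simulated data.

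Named genes were the 9 members with every probe, their direct partners, and up to 4 called genes per list, direction and time with the largest change. The members and the 14 other lists were chosen with earlier results of these data known. pcsk7 is not analysed here. A gene that the naming rule picked is not reported here. Same-numbered control arrays of 6 h and 24 h shared a slide, and their deviations from the group means correlated between 0.011 and 0.016. For the other same-numbered arrays these correlations lay between -0.042 and 0. With slide as a fixed block on the control arrays, 32569 of 36684 probes and 11 of 14 member probes were called between the times. There mhc1uba, at background on the control arrays, was not called (0.76, adjusted p = 0.158).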

Additional observations from a re-analysis of the deposited data

Results flagged for a closer look

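The morpholino effect differed between 24 h and 6 h, by limma's test of the difference itself, for 8 member probes of 6 genes, where 46.5% of all kept probes were called. For isg15 the effect was 4.65 higher at 24 h on the log2 scale (SE 0.55, adjusted p = 0.000127). It was lower at 24 h for 2 b2m probes, by -0.53 (adjusted p = 0.0185) and -0.68 (adjusted p = 0.00143), for 2 mhc1uba probes, by -1.98 (adjusted p = 0.00411) and -1.59 (adjusted p = 0.00696), and for psmb8a by -2.92 (SE 0.20, adjusted p = 5.96e-06). It was also lower for stat1a, by -1.78 (SE 0.21, adjusted p = 0.000109), and for stat1b, by -1.95 (SE 0.26, adjusted p = 0.000247). For psmb8a, stat1b and both of these mhc1uba probes the control arrays at 6 h were at background. At 24 h so were both groups for psmb8a and the third mhc1uba probe, and the control arrays for the first mhc1uba probe. The sizes of these 4 differences are therefore fitted against values that were not measured. The psmb8a probe and the third mhc1uba probe were kept only through PCSK7+p53 arrays at 6 h, so their calls are also tied to that filter. Under normexp the psmb8a difference was -0.02 (adjusted p = 0.935), that of stat1b -0.06 (adjusted p = 0.776) and that of the first mhc1uba probe -0.25 (adjusted p = 0.171). Single arrays were not tested for standing apart, since each group holds 3.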

How the results depend on the processing

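Over 24 alternatives, values of single members kept their direction and their side of the threshold in 826 cases, with a weaker result in 30, a stronger one in 12, a moved value in 11 and the other sign in 28. Counts of called member probes moved by over 1.5 times mostly where fewer of them were tested. With all 14 tested they also moved under quantile normalization and under normexp, for 1 comparison each. With only probes above background on all arrays, 17349 of 26468 probes and 6 of 6 member probes were called at 6 h. At 24 h 14526 and 5 were, for the difference 14130 and 4, for control over time 23941 and 6, and for PCSK7+p53 over time 23778 and 4. With the authors' deposited table, 10036 of 17127 probes and 7 of 8 member probes were called at 6 h, 7993 and 4 at 24 h, 8333 and 4 for the difference, 15568 and 6 for control over time and 15434 and 7 for PCSK7+p53 over time. For control over time, quantile normalization gave 33043 of 36684 probes and 7 of 14 member probes. Testing only probes above background in a group compared gave 32085 of 35162 and 7 of 8 there. For the difference, normexp gave 16189 of 36684 probes and 5 of 14 member probes. At 6 h normexp turned psmb8a to -0.22 and stat1b to -0.18, where its median over all probes was -0.27. It turned stat1b at 24 h to -0.23, where that median was -0.13. The other results that changed sign were near 0, at background, or over time. They were irf9 at 6 h (0.78 under quantile normalization, 0.95 in the authors' table), the irf9 difference (-0.58 and -0.73), and the irf1b difference and control change over time as means of probes (-0.37 and 0.23). Over time in control embryos they were mhc1uba (-0.48 under quantile normalization, -0.72 under normexp, -0.64 in the authors' table, -0.19 as a mean of probes), stat1b (-0.27, -0.58 and -0.45 in the same order of scalings) and stat1a (-0.23 in the authors' table). Over time in PCSK7+p53 embryos they were isg15 (0.32) and irf1b (0.13) under cyclic loess. Where 1 array was left out, the results that changed sign ranged from -0.29 to 0.19 for irf9 at 6 h, between -0.090 and 0.13 for stat1b at 24 h, from -0.039 to 0.44 for the irf9 difference and from -0.60 to 0.23 for isg15 over time in PCSK7+p53 embryos. The cause of these changes was not tested.

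Calls were 26.7% upward under normexp against 47.7% at 6 h, 32.3% against 45.1% at 24 h, 59.3% against 47.3% for the difference and 36.8% against 50.5% for control over time. Its median over all probes was -0.27 at 6 h and -0.13 at 24 h, so its changes are read relative to these shifts. The planned normexp on mean signals was not run, because the files used here hold median signals, and background was capped at its 99th percentile, a choice made after seeing the data. For the difference, a fit of only the groups compared is the fit of all arrays. With the replicate block, 21162 probes were called at 6 h, 15716 at 24 h, 16034 for the difference, 32890 for control and 32739 for PCSK7+p53 over time, and 13, 9, 8, 13 and 11 member probes. Slide as a random block had an estimated correlation of -0.117. It left 23118 of 36684 probes and 13 of 14 member probes called at 6 h, and 18141 and 9 at 24 h. No slide held both control and PCSK7+p53 arrays, so this fit cannot separate slide from morpholino.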
